A study of Mus musculus with 6 samples.

Results

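The inflammatory signals examined here comprise chemokines, cytokines and their receptors, endothelial adhesion molecules, and a few genes that these signals induce. They were 38 genes fixed by name, and their values were read from every probe set that the array's annotation assigned to exactly 1 of them. This gave 57 probe sets for 34 genes, out of 34945 probe sets with 1 gene on the array. The only probe set found for the complement gene C4b is annotated to several genes and was not used, and C3, Gdf15 and Il1rl1 were not analysed here.

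Transcript levels in mouse heart tissue were measured on 6 Affymetrix whole-genome expression arrays. The first group held 3 arrays from hAT1R transgenic C57BL/6 mice, in which a human receptor for angiotensin II (the type 1 receptor) is overexpressed. The second held 3 arrays from normal C57BL/6 mice. The series' design text says that age and sex were matched. Whether the 3 arrays of a group came from 3 animals is unstated in the sources used here, as are the age and the promoter that drives the transgene. The p-values cover only the spread among these arrays. In bulk heart tissue, fewer cells of a type and less RNA per cell cannot be told apart.

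Several facts bear on all values below. In the instrument's own records the word typed for each array was that of the other group on all 6 arrays ("control" on the 3 labelled transgenic ones, "transgene" on the 3 others). The groups were taken from the labels, hence the wording "labelled transgenic", and every sign would turn if the typed words were right. Fluidics station 2 processed all 3 labelled transgenic arrays along with non-transgenic array 1, while station 3 processed non-transgenic arrays 2 and 3. A difference with the station as a block therefore compares the labelled transgenic arrays with non-transgenic array 1 alone, and it cannot separate station from that array. Xist, expressed from the inactive X chromosome of females, was at 9.48, 2.58 and 9.48 on the labelled transgenic arrays and at 2.49, 9.69 and 3.01 on the others, so 2 of 3 labelled transgenic and 1 of 3 non-transgenic arrays had the level of females. The Y-linked Eif2s3y was high on the remaining arrays. The groups were thus not balanced for sex, against the design text, and each held at least 2 animals, while arrays of the same sex within a group may share an animal. All 9 cardiomyocyte markers were detected on all 6 arrays. All values are on the log2 scale as the authors deposited them, and a log2 value is comparable between arrays for the same probe set, not between genes.

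Chemokines are small secreted proteins that bind receptors on leukocytes and direct their migration. CC chemokines such as Ccl2 chiefly attract monocytes and lymphocytes, and Cx3cl1 is made as a membrane-bound adhesive form. Of the CXC chemokines, Cxcl1 and Cxcl2 chiefly attract neutrophils, while others such as Cxcl9 attract other leukocytes. Cytokines such as Tnf and Il1b activate endothelium through the transcription factor NF-κB. Activated endothelium displays the selectins Sele and Selp, on which leukocytes roll, and Vcam1 and Icam1, which arrest them. Angiotensin II is known to activate NF-κB in vessels and heart.

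Promoter sequences of 28 of the 38 genes were in the RefSeq table (assembly GRCm38.p6), and the 250 bases before each gene's start were searched on both strands. The NF-κB consensus motif searched was GGGRNNYYCC, 10 bases long (R is A or G, Y is C or T, N is any base). It was found in 6 of the 32 windows of these genes (18.8%), against 7.25% of all 32851 windows in the table. The 6 genes were Ccl9, Cxcl1, Cxcl2, Il1r1, Il6 and Nfkbia. The AP-1 motif TGANTCA was found in 12.5% of the windows (6.75% of all) and the TATA motif TATAAA in 37.5% (12.4% of all). A match is a description of the letters, not a binding site. Members such as Nfkbia were listed as NF-κB targets, so these shares are not a test of the list. The following 5 sequences are shown because they pair neighbouring genes. Cxcl1 and Cxcl2 hold the same 11 bases but differed in detection, and Ccl9 and Ccl6 varied in parallel although only Ccl9 holds a match. Nfkbia, the inhibitor that NF-κB itself induces, is shown with its match close to the start. They are written 5′ to 3′ along the gene, with the NF-κB matches in capitals.
Cxcl1, chr5:90890995-90891244, plus strand: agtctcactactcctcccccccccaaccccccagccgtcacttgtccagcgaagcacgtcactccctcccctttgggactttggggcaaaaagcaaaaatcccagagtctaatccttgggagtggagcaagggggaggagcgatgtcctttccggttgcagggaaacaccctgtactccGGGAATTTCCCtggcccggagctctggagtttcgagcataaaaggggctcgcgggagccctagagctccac
Cxcl2, chr5:90903649-90903898, plus strand: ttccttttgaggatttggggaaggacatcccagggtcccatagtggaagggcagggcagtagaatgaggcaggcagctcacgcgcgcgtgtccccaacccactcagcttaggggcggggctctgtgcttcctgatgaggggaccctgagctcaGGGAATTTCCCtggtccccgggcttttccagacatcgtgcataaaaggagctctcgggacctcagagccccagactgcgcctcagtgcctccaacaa
Nfkbia, chr12:55492648-55492897, minus strand: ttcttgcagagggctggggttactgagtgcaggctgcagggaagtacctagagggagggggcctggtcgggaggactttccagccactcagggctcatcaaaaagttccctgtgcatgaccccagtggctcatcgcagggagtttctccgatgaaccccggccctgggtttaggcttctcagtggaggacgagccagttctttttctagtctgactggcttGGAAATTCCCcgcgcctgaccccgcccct
Ccl9, chr11:83578637-83578886, minus strand: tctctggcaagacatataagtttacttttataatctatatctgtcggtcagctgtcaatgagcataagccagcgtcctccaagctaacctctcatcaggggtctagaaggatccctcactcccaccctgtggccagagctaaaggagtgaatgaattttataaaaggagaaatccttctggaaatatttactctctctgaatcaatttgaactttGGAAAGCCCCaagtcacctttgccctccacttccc
Ccl6, chr11:83593088-83593337, minus strand: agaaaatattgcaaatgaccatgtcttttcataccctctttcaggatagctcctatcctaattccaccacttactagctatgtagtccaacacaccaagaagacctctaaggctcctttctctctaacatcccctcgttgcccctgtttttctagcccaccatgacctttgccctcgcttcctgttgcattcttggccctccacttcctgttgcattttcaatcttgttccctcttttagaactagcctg

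Several of the classical acute signals were not detected in these hearts. A probe set was called detected on an array where it exceeded the 95th percentile of 129 probe sets for olfactory, vomeronasal and taste receptors and keratin-associated proteins, genes that heart muscle does not use. That level lay between 3.32 and 3.49 across the arrays. By each gene's brightest probe set, 18 of 34 genes were detected on all 6 arrays, 7 on some and 9 on none. The 9 were the chemokines Ccl3, Ccl4, Cxcl2 and Cxcl13, the cytokines Il1b, Il6 and Il18, and the endothelial selectins Sele and Selp. The plot of levels by array shows them to the left of the detection level.

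**Figure D1:**
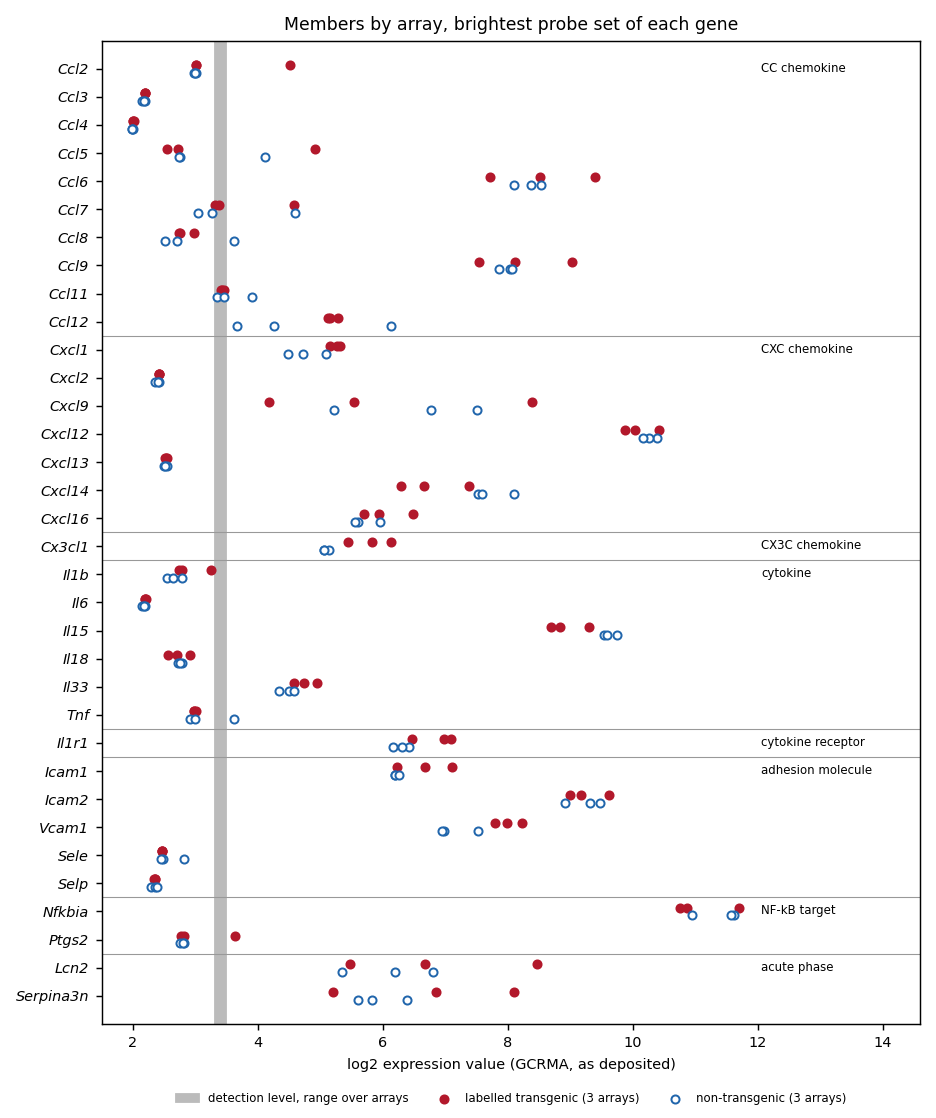
Log2 value (horizontal axis) of each gene's brightest probe set on each of the 6 arrays, with genes on the vertical axis grouped by role. Filled red points are the 3 labelled transgenic arrays, open blue points the 3 non-transgenic ones, and the grey band is the range of the detection level, 3.32 to 3.49. The vertical axis has no scale, and levels of different genes cannot be compared.

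Of the 57 probe sets, 35 passed the filter on low values (a mean over the 6 arrays above log2 3.285, the median of all probe sets) and were tested, and these belong to 21 genes. No member passed limma's test at an adjusted p of 0.05, where 0.218% of all 22518 tested probe sets did. At an unadjusted p under 0.05 there were 8 of 35 member probe sets (22.9%), of which 5 were higher in the labelled transgenic group and 3 lower, against 16.4% of all probe sets (9.41% higher, 6.98% lower). These 8 probe sets were also those at which the groups were fully separate (22.9%), as they were at 23.0% of all probe sets (13.2% higher, 9.78% lower), so this share lay at the background. They belong to 6 genes, namely Vcam1, Cx3cl1, Il1r1 and Cxcl1 with higher and Il15 and Cxcl14 with lower values in the labelled transgenic group. The median difference over the 35 was 0.21, against 0.0097 over all probe sets tested, and it was 0.08 without labelled transgenic array 1, 0.31 without array 2 of that group and 0.34 with the station as a block. The smallest adjusted p of a member in any of 15 fits was 0.0648, for Il15 without labelled transgenic array 1. Values and intervals are therefore given for each gene, and none of the list is described as having risen or fallen.

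**Figure D2:**
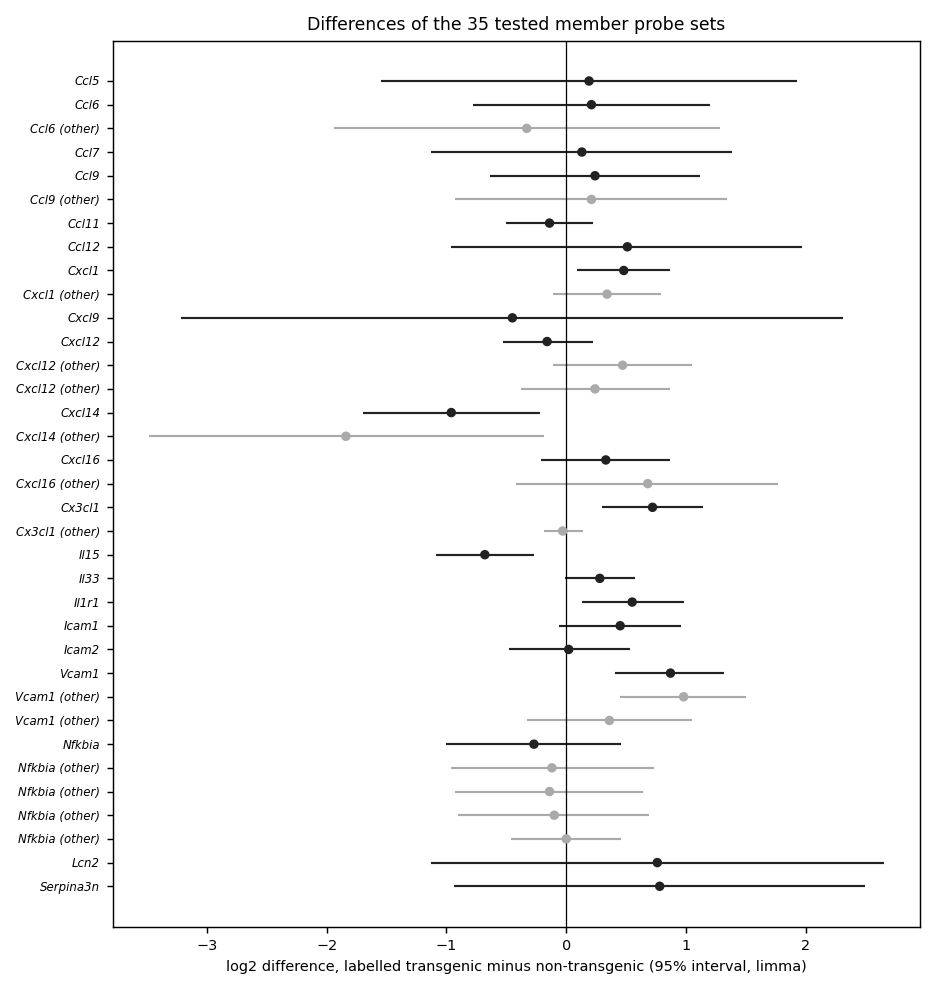
Log2 difference of the labelled transgenic minus the non-transgenic group (horizontal axis) for the 35 tested probe sets (vertical axis), with limma's 95% interval as a line. Black marks each gene's brightest probe set and grey its other probe sets. The narrowest interval is that of the dimmer Cx3cl1 probe set, -0.19 to 0.14, and the widest that of Cxcl9, -3.22 to 2.31.

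Among the adhesion molecules, Vcam1 had the smallest p of the 35 probe sets. Vcam1 binds the integrin VLA-4 of monocytes and lymphocytes. Its brightest probe set was at 7.99, 7.80 and 8.23 on the labelled transgenic arrays and at 7.52, 6.97 and 6.95 on the non-transgenic ones. All 3 labelled transgenic values were above all others, and non-transgenic array 1 lay nearest to them. The difference was 0.87 ± 0.19 (SE), or 1.82-fold, with an interval from 0.41 to 1.32 and limma's adjusted p = 0.121. With the station as a block, where non-transgenic array 1 alone is the comparison, it was 0.49. Over all fits limma's adjusted p ran from 0.0829 to 0.326. A second Vcam1 probe set was at 7.48, 7.30 and 7.47 against 6.89, 6.01 and 6.43, a difference of 0.98 ± 0.22. The dimmest did not separate the groups, at 6.00, 5.11 and 5.95 against 5.68, 5.02 and 5.28.

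Icam1, the ligand of the leukocyte integrin LFA-1, was at 6.68, 6.23 and 7.10 against 6.19, 6.20 and 6.26. The non-transgenic values were close together, and labelled transgenic array 2 lay among them. The difference was 0.45 ± 0.21, with an interval from -0.06 to 0.96 and limma's adjusted p = 0.358, and it was 0.24 without labelled transgenic array 3. Icam2, which endothelium displays without stimulation, was at 8.99, 9.17 and 9.61 against 8.91, 9.47 and 9.31, so that the groups overlapped, with a difference of 0.02 (interval -0.48 to 0.53). Sele, at 2.46, 2.47 and 2.46 against 2.81, 2.48 and 2.45, was below the detection level on every array. So were all 3 probe sets of Selp, the brightest of them at 2.36, 2.35 and 2.34 against 2.29, 2.35 and 2.38. These inducible selectins therefore gave no measurable level in either group.

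A list of 18 genes held leukocyte ligands of these molecules and other trafficking genes, among them junction genes of endothelium. Of these 18, 11 were tested, none passed, and 2 had an unadjusted p under 0.05, against 16.4% of all probe sets. The 2 were Itgb1, the beta chain of VLA-4 among many integrins, at 0.25 ± 0.08 (limma's adjusted p = 0.224), and the junction protein F11r at 0.26 ± 0.10 (adjusted p = 0.264). Itga4, the alpha chain of VLA-4, was not detected on any array. The endothelial marker list averaged 8.74 to 8.99 on the labelled transgenic arrays and 8.70 to 9.03 on the others, with all 10 genes detected on every array. The macrophage list, whose cells can also carry Vcam1, averaged 7.35 to 7.46 against 6.87 to 7.0, and its part in the Vcam1 values was not tested.

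**Figure D3:**
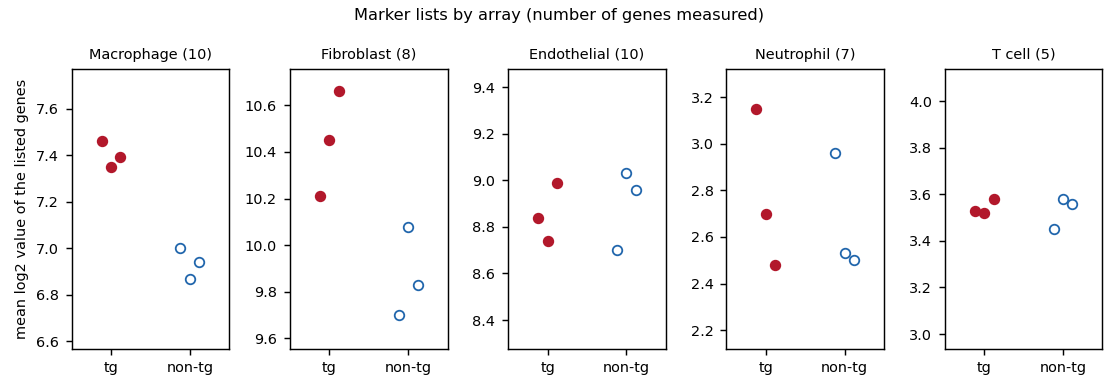
Mean log2 value (vertical axis, each panel spanning 1.2 units around its mean) of 5 marker lists on the 3 labelled transgenic (filled red) and 3 non-transgenic (open blue) arrays. The macrophage and fibroblast means do not overlap between groups, those of the endothelial, neutrophil and T cell lists do, and the lists' part in any gene's difference was not tested.

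The membrane-bound chemokine Cx3cl1, fractalkine, attracts cells with the receptor Cx3cr1. It was at 5.44, 5.82 and 6.13 on the labelled transgenic arrays and at 5.05, 5.13 and 5.05 on the others. The groups did not overlap, and the non-transgenic values spanned less than 0.1. By the stricter 99th percentile of the same reference probe sets, 5.10 to 5.23 across the arrays, Cx3cl1 was detected on 3 labelled transgenic and 0 non-transgenic arrays. The non-transgenic values may thus lie near background. The difference was 0.72 ± 0.17, or 1.65-fold, with an interval from 0.30 to 1.14 and limma's adjusted p = 0.143 (0.0726 to 0.294 over all fits). Another tested probe set of the gene did not share it, at 4.37, 4.40 and 4.28 against 4.34, 4.41 and 4.37 (difference -0.03 ± 0.07). That probe set lay below the stricter level on every array and may also lie near background. The gene's remaining 2 probe sets were below detection. The receptor Cx3cr1 was at 3.44, 3.54 and 4.22 against 3.48, 3.52 and 3.50.

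Cxcl14 had the largest difference in the other direction. This chemokine is made by epithelial and stromal cells, and attracts monocytes and dendritic cells. Its brighter probe set was at 6.65, 7.38 and 6.29 on the labelled transgenic arrays and at 8.09, 7.52 and 7.58 on the others, and its dimmer one at 5.48, 6.42 and 3.80 against 7.74, 6.73 and 6.74. In both, labelled transgenic array 2 was the highest of its group and array 3 the lowest, and no value of one group reached the other. The differences were -0.96 ± 0.30 (1.94-fold lower, interval -1.70 to -0.22, limma's adjusted p = 0.214) and -1.84 ± 0.68 (3.57-fold lower, interval -3.48 to -0.19, adjusted p = 0.264). Over the fits that leave out a single array they ran from -1.26 to -0.72 and from -2.43 to -1.12. Labelled transgenic array 2, the highest of its group, was also its only array with low Xist, and in a fit that included Xist as a term the first difference was -0.77.

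**Figure D4:**
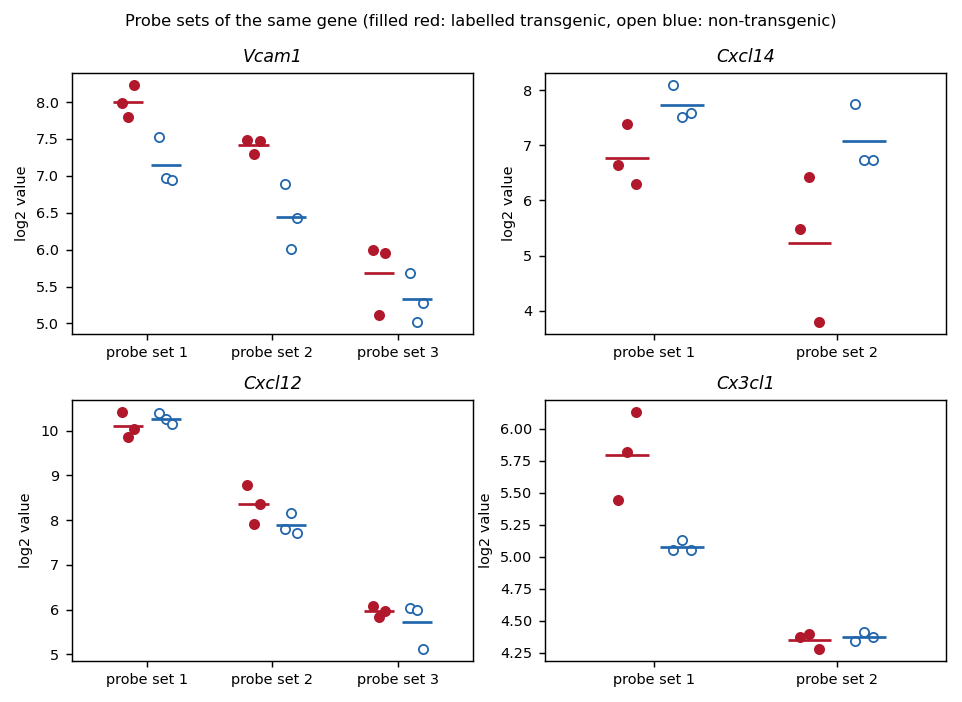
Log2 values (vertical axis) of the tested probe sets of Vcam1, Cxcl14, Cxcl12 and Cx3cl1, numbered from the brightest, on the 3 labelled transgenic (filled red) and 3 non-transgenic (open blue) arrays, with group means as bars. Both Cxcl14 probe sets, the 2 brighter Vcam1 ones and the brighter Cx3cl1 one separate the groups, and the Cxcl12 probe sets differ in sign. The dimmer Cx3cl1 probe set may lie near background.

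Cxcl12, which binds Cxcr4 and the scavenging receptor Ackr3 and holds stem and immune cells in tissue, gave no common direction. Its brightest probe set was at 10.42, 9.87 and 10.04 against 10.39, 10.26 and 10.16, a difference of -0.16 ± 0.15, while its other probe sets were at 0.47 ± 0.24 and 0.24 ± 0.26. The groups overlapped in all 3. Of 17 listed chemokine receptors, 7 were tested and none passed. Ackr3 had the smallest p of them, at 10.41, 10.69 and 11.08 against 9.75, 9.84 and 10.06, with no overlap, a difference of 0.84 ± 0.18 and limma's adjusted p = 0.12. Next was the scavenging receptor Ackr4, at 4.59, 5.41 and 5.35 against 4.66, 4.59 and 4.58, a difference of 0.51 ± 0.22 (adjusted p = 0.331). Labelled transgenic array 1 lay among the non-transgenic values, and without it the difference was 0.77 and passed (limma's adjusted p = 0.0472). This was the smallest adjusted p of all fits for Ackr4, which ran up to 0.635. Labelled transgenic array 1 and the non-transgenic arrays also lay below the stricter 99th percentile level, 5.10 to 5.23. Ccr1, Ccr3, Ccr7, Cxcr2, Cxcr3, Cxcr5, Cxcr6 and Ackr1 were not detected on any array.

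The neutrophil chemoattractants Cxcl1 and Cxcl2 lie side by side on chromosome 5, and their promoter windows share the NF-κB match. Cxcl1 was detected on every array by its brightest probe set, at 5.26, 5.32 and 5.15 against 5.09, 4.48 and 4.72, with no overlap and a difference of 0.48 ± 0.16 (interval 0.09 to 0.87, limma's adjusted p = 0.233). With the station as a block the difference was 0.15 (adjusted p = 0.641), since non-transgenic array 1 was the highest of its group. By the stricter 99th percentile the brightest probe set was detected on 3 labelled transgenic and 0 non-transgenic arrays. A second Cxcl1 probe set overlapped between groups, at 4.03, 3.38 and 3.61 against 3.29, 3.52 and 3.18. Cxcl2 was detected on none, with all 6 values between 2.36 and 2.42. Their receptor Cxcr2 and the neutrophil genes Csf3r, Mpo, Camp, Ngp and Ltf were not detected, while S100a8 was at 4.97, 3.50 and 2.97 against 4.19, 2.94 and 2.77.

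Cxcl16, a scavenger receptor and chemokine of macrophages and endothelium, was at 5.69, 5.93 and 6.48 against 5.60, 5.56 and 5.96. The groups overlapped, and array 3 was the highest of each. The difference was 0.33 ± 0.22, and 0.68 ± 0.45 in its other probe set. The first was 0.10 without labelled transgenic array 3 and 0.50 without array 1 of that group. Cxcl9, an interferon-gamma-induced attractant of T cells, had the widest range over the arrays of all 57 probe sets. It was at 4.18, 5.54 and 8.39 on the labelled transgenic arrays and at 7.50, 5.21 and 6.77 on the others. The highest and the lowest array were both labelled transgenic, and the difference of -0.45 had an interval from -3.22 to 2.31. Ccl5, an attractant of T cells and monocytes, was above the detection level on array 3 of each group alone, at 2.72, 2.55 and 4.91 against 2.76, 2.73 and 4.11. Other leukocyte genes differed in which array was highest. The pan-leukocyte gene Ptprc was at 7.18, 7.07 and 7.94 against 6.66, 7.17 and 7.42, and the monocyte receptor Ccr2 at 3.96, 3.81 and 5.30 against 3.82, 3.86 and 4.16. Both were highest on array 3 of each group, but here and below a shared array number is not taken to pair samples. The macrophage gene Mrc1, at 8.66, 8.61 and 8.21 against 8.08, 7.99 and 7.74, was highest on array 1 of each, as was S100a8. Other genes of the macrophage list differed from Mrc1 in this. Lyz2, at 11.74, 11.65 and 11.98 against 11.24, 11.27 and 11.49, was highest on array 3 of each group. So was Cd14, at 6.93, 6.44 and 7.01 against 6.31, 6.33 and 6.42. Csf1r was highest on labelled transgenic array 2 and non-transgenic array 3. The T cell list averaged 3.52 to 3.58 and 3.45 to 3.58, near the detection level, with Cd3d and Cd3g not detected. The part of these cells in the Ccl5 values was not tested.

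All 10 CC chemokine genes lie on chromosome 11. In the RefSeq gene order Ccl2, Ccl7, Ccl11, Ccl12 and Ccl8 follow each other, and so do Ccl5, Ccl9, Ccl6, Ccl3 and Ccl4. None of the 8 tested CC probe sets had an unadjusted p under 0.05 or separated the groups. The monocyte attractant Ccl2 was at 4.52, 3.01 and 3.01 on the labelled transgenic arrays and at 2.98, 3.01 and 2.99 on the others. Only labelled transgenic array 1 exceeded the detection level. Its neighbour Ccl7, which shares the receptor Ccr2, was at 4.58, 3.37 and 3.32 against 4.59, 3.04 and 3.26, and was high on array 1 of each group.

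Ccl12, a mouse attractant of monocytes related to Ccl2, was detected on all arrays, at 5.15, 5.12 and 5.28 against 6.13, 3.67 and 4.25. The labelled transgenic values were close together, and the non-transgenic ones lay on both sides of them. The difference was 0.51 ± 0.60, and with the station as a block it turned to -0.94 (limma's adjusted p = 0.181). Ccl8 exceeded the detection level only on non-transgenic array 1, at 3.62, with its other values between 2.52 and 2.97. Ccl8 and Ccl12 were therefore highest on that array, while Ccl7 was at 4.59 there and at 4.58 on labelled transgenic array 1. The eosinophil attractant Ccl11 lay within the range of the detection level on 5 arrays, at 3.41, 3.45 and 3.43 against 3.35, 3.46 and 3.90. Ccl3 and Ccl4, chemokines made by macrophages, lay between 2.15 and 2.20 and between 1.98 and 2.01.

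Ccl6 and Ccl9, myeloid chemokines that bind Ccr1, were detected on every array and varied in parallel. Ccl6 was at 9.40, 8.51 and 7.72 on the labelled transgenic arrays and at 8.10, 8.53 and 8.37 on the others. Ccl9 was at 9.03, 8.12 and 7.53 against 7.85, 8.04 and 8.07. In both genes labelled transgenic array 1 was the highest of the 6 arrays and array 3 the lowest, with the non-transgenic arrays between. The differences, 0.21 ± 0.41 and 0.24 ± 0.36, turned negative without labelled transgenic array 1, to -0.22 and -0.16. A dimmer Ccl6 probe set had the other sign in the reported fit, at -0.33 ± 0.66, while that of Ccl9 was at 0.21 ± 0.47. The genes are adjacent and related in sequence, and whether a probe set of either also reads the other was not tested. Of the promoter windows printed here, that of Ccl9 holds an NF-κB match, an AP-1 match and TATA matches, and that of Ccl6 holds none of these motifs.

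Lcn2 and Serpina3n were high and low on the same labelled transgenic arrays as Ccl6 and Ccl9. Lcn2, an iron-chelating lipocalin of neutrophils and stressed tissue, was at 8.46, 6.67 and 5.48 against 6.20, 6.80 and 5.35. Serpina3n, a secreted serine protease inhibitor, was at 8.10, 6.85 and 5.20 against 6.39, 5.60 and 5.83. In both, labelled transgenic array 1 was the highest and the groups overlapped. The differences of 0.76 ± 0.78 (interval -1.13 to 2.65) and 0.78 ± 0.71 (interval -0.94 to 2.49) were at -0.04 and 0.08 without that array. Other listed acute phase and NF-κB response genes went both ways. Timp1, at 7.26, 5.13 and 4.36 on the labelled transgenic arrays, and Cebpd, at 9.06, 8.02 and 7.42, fell in the same order. Haptoglobin, Hp, at 4.92, 4.93 and 5.54, and Hamp, the iron hormone hepcidin, at 3.79, 3.62 and 5.50, were highest on array 3. On the non-transgenic arrays Timp1 was at 3.71, 3.52 and 4.14. Its groups thus did not overlap, with a difference of 1.79 ± 0.72 (limma's adjusted p = 0.294). Those of Cebpd overlapped, with a difference of 0.13 ± 0.44. Serpina3n has close paralogs beside it on chromosome 12, and whether its probe set also reads them was not tested.

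Labelled transgenic array 1 also had the highest value of Ptgs2, the inducible cyclooxygenase of prostaglandin synthesis, at 3.64 where the other 5 arrays lay between 2.76 and 2.82. It was likewise highest for Il1b, at 3.25 against 2.55 to 2.79 elsewhere, although this stayed under the detection level. Nfkbia was at 11.70, 10.86 and 10.76 on the labelled transgenic arrays and at 10.95, 11.61 and 11.57 on the others. Labelled transgenic array 1 and non-transgenic arrays 2 and 3 were high and the other 3 low, so the groups overlapped, and the same arrays were high in 3 of its 4 other tested probe sets. The difference was -0.27 ± 0.30. It was 0.16 with the station as a block and ran from -0.57, without labelled transgenic array 1, to -0.095, without array 3 of that group.

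Across the 35 tested probe sets, labelled transgenic array 1 was the highest array in 16 (45.7%), where it was the highest in 16.1% of all probe sets tested. The probe sets of 1 gene share their transcript, and by brightest probe set the count was 6 of 21 genes: Ccl6, Ccl9, Cxcl12, Nfkbia, Lcn2 and Serpina3n. Array 3 of that group was highest in 8 of 21, namely Vcam1, Icam1, Icam2, Cx3cl1, Cxcl16, Cxcl9, Ccl5 and Il33. By probe set it was highest in 9 of 35 (25.7%), against 20.6% of all probe sets tested. The spread within groups was wide for these genes. The pooled SD within groups was above the 95th percentile of all tested probe sets in 17 of 35 (48.6%), and its median was 0.42, against 0.14 over all probe sets tested. Signal level was not taken into account in that count. The map of deviations by array shows that the arrays high in Lcn2 and Serpina3n and those high in Cxcl9 and Ccl5 were not the same.

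**Figure D5:**
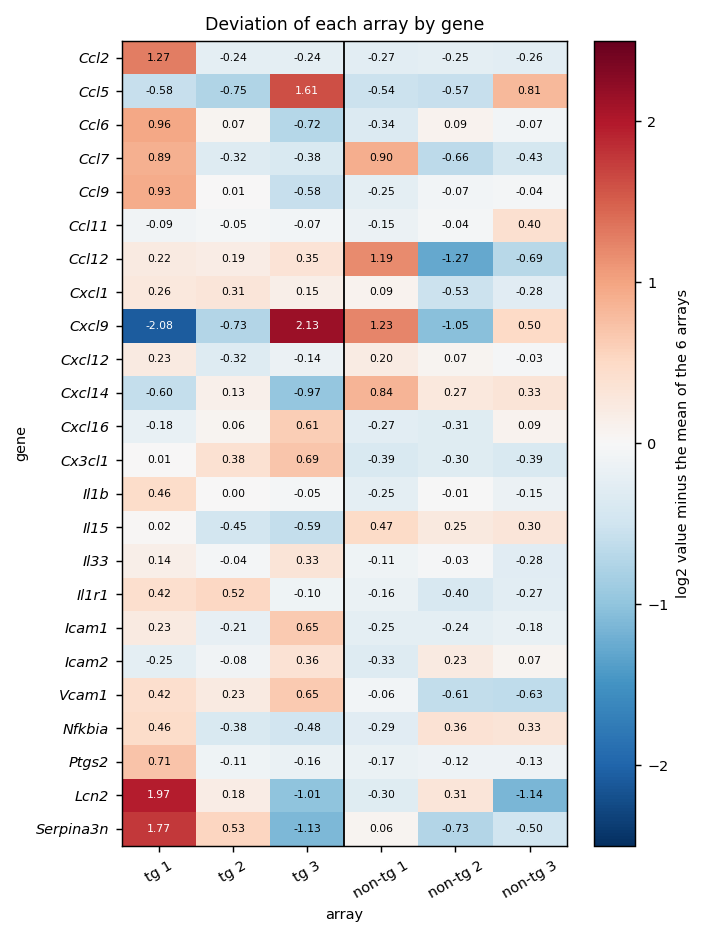
Log2 value of each array (columns) minus the mean of the 6 arrays for the 21 tested genes and Ccl2, Il1b and Ptgs2 (rows), by brightest probe set, with red above and blue below the mean. Labelled transgenic array 1 (tg 1) is high for Lcn2 at 1.97, Serpina3n at 1.77 and Ccl2 at 1.27 and low for Cxcl9 at -2.08, and labelled transgenic array 3 is high for Cxcl9 at 2.13 and Ccl5 at 1.61.

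Among the cytokines, Il15 was the only one whose groups did not overlap. Il15 sustains natural killer and memory T cells and is abundant in muscle. It was at 9.30, 8.84 and 8.69 on the labelled transgenic arrays and at 9.75, 9.53 and 9.58 on the others, with labelled transgenic array 1 nearest to the non-transgenic values. The difference was -0.68 ± 0.17, 1.6-fold lower, with an interval from -1.09 to -0.27 and limma's adjusted p = 0.15. It kept its sign in all fits, between -0.86 and -0.55 where a single array was left out, and the adjusted p ran from 0.0648 to 0.352.

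Il15ra, the chain that presents Il15, was at 6.97, 7.18 and 6.80 against 7.57, 7.90 and 7.30, also without overlap. Its difference was -0.60 ± 0.18 (limma's adjusted p = 0.189). Il33, an alarmin of stromal and endothelial nuclei whose receptor is Il1rl1, was at 4.74, 4.57 and 4.94 against 4.50, 4.57 and 4.33, with a difference of 0.28 ± 0.12 (interval -0.01 to 0.57, adjusted p = 0.315). Tnf exceeded the detection level on non-transgenic array 3 alone, at 3.61, with the other values between 2.91 and 3.01. Il6 lay between 2.14 and 2.21 on all arrays and Il18 between 2.56 and 2.91.

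Il1r1, the signalling receptor of Il1b, was at 6.98, 7.09 and 6.47 against 6.41, 6.16 and 6.30. The groups did not overlap, and labelled transgenic array 3 lay just above the highest non-transgenic value. The difference was 0.55 ± 0.17, or 1.47-fold, with an interval from 0.13 to 0.98 and limma's adjusted p = 0.213. The macrophage and fibroblast lists also separated the groups, the latter at means of 10.21 to 10.66 against 9.70 to 10.08, and their part in the Il1r1 values was not tested. Of 14 listed cytokine receptors and antagonists 7 were tested and none passed, while 4 had an unadjusted p under 0.05 (3 positive differences and 1 negative), where 16.4% of all probe sets did. The smallest p was that of Il6st, the gp130 chain shared by receptors of the Il6 family, at 0.46 ± 0.10 (adjusted p = 0.118), and the next that of Il15ra.

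Of 22 listed intracellular NF-κB genes and adaptors, 17 were tested and none passed, their median difference was 0.06, and the smallest p belonged to the adaptor Tab2 (0.21 ± 0.08, limma's adjusted p = 0.284) and the ubiquitin ligase Traf6 (0.25 ± 0.12, adjusted p = 0.37). Of 22 complement genes beside the members, 15 were tested and none passed. Their median difference was 0.40, and 8 (against 16.4% of all probe sets) had an unadjusted p under 0.05, each with a positive difference. The largest difference of the 8 was that of Masp1, at 1.18 ± 0.27 (limma's adjusted p = 0.128). C1qa, C1qb and C1qc, the C1q chains that macrophages make, were also among the 8, at 0.40, 0.61 and 0.52. The macrophage list averaged 7.35 to 7.46 against 6.87 to 7.0 and the fibroblast list 10.21 to 10.66 against 9.70 to 10.08, and their part was not tested. Clu, an inhibitor of the terminal complex, was at 14.02, 14.07 and 13.98 against 13.42, 13.58 and 13.61 (0.49 ± 0.08, adjusted p = 0.078, and 0.0426 to 0.238 over all fits, under 0.05 with trended and robust variance alone). Serping1, the C1 inhibitor, was at 0.40 ± 0.08 (adjusted p = 0.118).

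Of 18 other acute phase and NF-κB response genes, 12 were tested and 1 passed, with a list median of 0.16. This was Cp, the ferroxidase ceruloplasmin, which rose 1.74-fold, from 9.35, 9.30 and 9.27 on the non-transgenic arrays to 10.24, 10.11 and 9.96 on the labelled transgenic ones (limma's adjusted p = 0.0463). With the station as a block its difference was 0.76 (adjusted p = 0.122). The adjusted p was above 0.05 without any single one of the 6 arrays, and over all fits it ran from 0.0296 to 0.173. A gauge that may move with RNA quality is the gap between the 3′ and 5′ probe sets of actin, which on the log2 scale was 0.879 ± 0.074 (SD, n = 3) in the labelled transgenic group against 1.01 ± 0.04 (2-sided exact permutation p = 0.1, the smallest that 3 against 3 arrays allow). The same gap for Gapdh was 0.113 against 0.132 (exact permutation p = 0.4). Their part in these values was not tested.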

How the data were processed

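The 6 Affymetrix arrays of mouse heart RNA gave 1 log2 value per probe set. The authors deposited these log2 values after GCRMA, per the submitters' processing notes; the sources used here give neither its version nor later steps. The deposited instrument records gave fluidics station and typed words. The table held 45101 probe sets, less 64 controls. GEO's platform annotation names 1 gene for 34945 of them, several for 932 and none for 9160. Where the mean exceeded 3.285, limma (3.58.1, under R 4.3.3; lmFit and eBayes, 2-sided) was fitted, with Benjamini-Hochberg adjustment over 22518 probe sets and a threshold of 0.05; ± after a difference is limma's standard error. The fit was tested on simulated data. The number of arrays limits precision. All 38 members were named; from each other list up to 3 genes that passed were named, or else the 2 with the smallest p. Genes such as Cx3cr1, Itga4, S100a8, Ptprc, Ccr2, Mrc1, Lyz2, Cd14, Csf1r, C1qa, C1qb, C1qc, Masp1, Hp, Hamp, Timp1 and Cebpd were named beside them, after their values were seen. These were taken for their link to a member or to its pattern. Members and lists were chosen with earlier results of these data known.

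Alternatives covered the filter, quantile normalization, median centring, trended robust variance, replicate number, fluidics station or Xist level in the model, the mean of probe sets, single arrays left out, and the detection level.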

Additional observations from a re-analysis of the deposited data

How the results depend on the processing

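The count of member probe sets called was 0 in limma in every fit run. At an unadjusted p under 0.05 there were 8 in the reported fit and 5 to 11 in the others. Of all probe sets tested, 49 were called in the reported fit, 15 with no filter, 143 with the stricter filter, 102 with trended and robust variance, 2 with the station as a block, 0 with the Xist level as a term, and 0 to 75 without a single array. With the replicate number as a replicate block no probe set was called, and 10 member probe sets had an unadjusted p under 0.05. Same-numbered arrays did not deviate together (correlations -0.0831, -0.174 and -0.00672), so the numbers are not taken to pair samples. The median difference was 0.02 with no filter, over all 57 member probe sets, 22 of which lie below the filter; without single arrays it ran from 0.08 to 0.31. By the rule of all 3 arrays of a group, 19 genes were detected, and 16 at the 99th percentile. Of 21 tested genes, 10 kept their sign in all settings. With the station as a block, where non-transgenic array 1 alone is the comparison, the sign turned for Ccl7 (-0.83), Ccl11 (0.078), Ccl12 (-0.94) and Nfkbia (0.16). With the mean of probe sets it turned for Ccl6 (-0.06) and Cxcl12 (0.19), and with Xist in the fit for Icam2 (-0.056). Without single arrays the difference ran from -0.56 to 0.65 for Ccl5, -0.22 to 0.62 for Ccl6, -0.29 to 0.61 for Ccl7, -0.16 to 0.59 for Ccl9, -0.25 to 0.026 for Ccl11, -0.00076 to 1.23 for Ccl12, -1.63 to 0.47 for Cxcl9, -0.15 to 0.15 for Icam2, -0.57 to -0.095 for Nfkbia, -0.31 to -0.035 for Cxcl12, 0.085 to 1.54 for Serpina3n and -0.038 to 1.45 for Lcn2. The cause of these moves was not tested. For genes below the detection level no difference was measured, and the number of arrays and a station partly aligned with group limit the rest.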
